A study of Homo sapiens with 6 samples.

Results

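The cytosolic ribosomal protein mRNAs of SK-N-BE(2), a MYCN-amplified line from a human neuroblastoma, were followed after knockdown of BCAT1, which moves amino groups to and from leucine, isoleucine and valine in the cytosol. Members were the rows of the deposited count table whose Ensembl gene ID belongs to a protein-coding gene named RPL or RPS with a number and an optional A, or RPLP0, RPLP1, RPLP2, RPSA or RPS4X. Pseudogenes, paralogs with an L suffix and the RPS6K kinases stayed out. The rule found 77 genes among 64252 rows, 46 of the large subunit and 31 of the small subunit, on 21 chromosomes, and all 77 passed the filter on low counts. FAU, which encodes a ribosomal protein fused to a ubiquitin-like protein, is named differently and lies outside it.

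Bulk RNA was sequenced in 6 libraries, 2 from cells that received BCAT1 hairpin 1, 2 from cells with BCAT1 hairpin 2 and 2 from cells with a control hairpin. The 3 groups share the cell line. The series title names stabilization of N-Myc by BCAT1, and the comparison asks how transcripts differ once BCAT1 is lowered. The labels do not say whether the libraries of a group came from separate cultures, so p-values measure the spread between these libraries, which may be technical.

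Ribosomal proteins and ribosomal RNA build the large subunit, which joins amino acids, and the small subunit, which reads the mRNA. Cells make these proteins in nearly equal numbers, and most of their mRNAs in mammals begin with a cytosine followed by a run of pyrimidines, the terminal oligopyrimidine (TOP) tract, through which the kinase mTOR and the RNA-binding protein LARP1 control their translation and stability. In neuroblastoma, N-Myc is known to drive ribosome production.

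Start sites carry that tract, and those of members the results turn on are shown here. Each line holds 30 bases of the coding strand from RefSeq (GRCh38.p14), 10 before the annotated start and 20 from it onwards, 5′ to 3′, with the tract in capitals where it begins at the start. The first 5 belong to members with some of the largest falls or hairpin differences. The next 2 belong to members with a tract that did not pass the test. The last 3 belong to members without a tract at the annotated start. A single RefSeq start was used for each gene, so a tract at another start would be missed. In RPL9 a C followed by pyrimidines stands further into the window.
RPL29 (chr3:51995876-51995905, minus strand): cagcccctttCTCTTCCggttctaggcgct
RPS10 (chr6:34426050-34426079, minus strand): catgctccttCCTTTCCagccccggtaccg
RPLP2 (chr11:809957-809986, plus strand): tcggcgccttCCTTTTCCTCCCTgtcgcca
RPS27 (chr1:153990752-153990781, plus strand): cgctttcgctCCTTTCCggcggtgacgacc
RPL14 (chr3:40457329-40457358, plus strand): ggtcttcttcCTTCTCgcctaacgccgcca
RPL38 (chr17:74203668-74203697, plus strand): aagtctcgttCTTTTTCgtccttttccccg
RPS9 (chr19:54200848-54200877, plus strand): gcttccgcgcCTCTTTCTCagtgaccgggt
RPL15 (chr3:23916535-23916564, plus strand): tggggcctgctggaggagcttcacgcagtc
RPL9 (chr4:39458903-39458932, minus strand): taatgacgacagacgttctttctttgctgc
RPS29 (chr14:49598691-49598720, minus strand): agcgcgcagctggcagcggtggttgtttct

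RefSeq held a start for 62 of the 77 members. A C at the annotated start followed by at least 4 pyrimidines stood in 42 of these 62 (67.7%), against 4.04% of 27305 annotated promoters. Within 5 bases of the start the shares were 80.6% of the members and 21.1% of all promoters. Both subunits carried the tract, with 65.8% of large and 70.8% of small subunit members.

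Libraries held 32333416 to 39321388 counts. BCAT1 stood at 55.8 and 55.3 CPM (counts scaled to the library size, with TMM factors) with hairpin 1, 116 and 111 CPM with hairpin 2, and 459 and 475 CPM in control cells, as the labels say. MYCN stood at 1820 and 1830 CPM, 1700 and 1820 CPM, and 2250 and 2270 CPM in the same order of groups. All 8 adrenergic neuroblastoma markers were present in every library, Markers of other cell types were mixed. Of the leukocyte markers CD3E was at 0, PTPRC stood at 0.283 to 0.768 CPM and CD68 at 14.1 to 37.3 CPM. Of the epithelial markers CDH1 did not exceed 0.0743 CPM, KRT8 stood at 2.06 to 3.6 CPM and EPCAM at 3.59 to 6.47 CPM. Of the endothelial markers PECAM1 did not exceed 0.128 CPM and VWF stood at 6.04 to 7.32 CPM. The collagen COL1A1 (155 to 245 CPM), LUM (135 to 213 CPM) and DCN (25.3 to 32.3 CPM), taken as fibroblast markers, were expressed throughout. Their part in the results was not tested.

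Ribosomal protein mRNAs took a smaller share of the library with either hairpin. The 77 members held 4.58% and 4.55% of all counts with hairpin 1, 4.51% and 4.52% with hairpin 2, and 5.91% and 5.74% in control cells. Every knockdown library lay below both controls, and the hairpins lay within 0.1 percentage points of each other. Large subunit members held 2.77% and 2.74%, 2.65% and 2.67%, and 3.49% and 3.42%. Small subunit members held 1.81% in both hairpin 1 libraries, 1.86% in both hairpin 2 libraries, and 2.41% and 2.32% in control cells. Among the 100 genes with the most counts, 17 and 17 were members with hairpin 1, 14 and 15 with hairpin 2, and 22 and 22 in control cells. CPM are shares of a library, and in bulk RNA fewer cells with a high share and less ribosomal protein mRNA in each cell cannot be told apart.

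**Figure D1:**
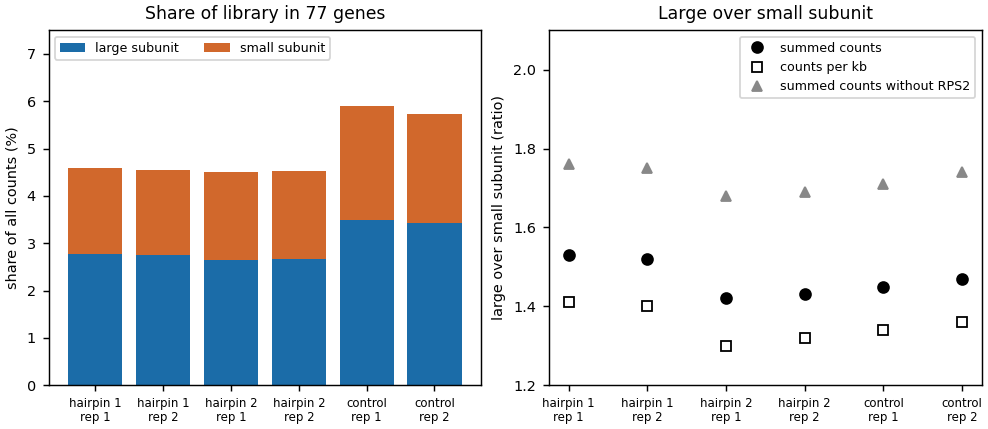
Left, share of all counts (%) held by the 46 large and 31 small subunit members in each library. Right, the ratio of large to small subunit counts in each library, as summed counts, per kilobase of transcript, and without RPS2. All 4 knockdown libraries lie below both controls on the left, and the hairpin 1 libraries lie highest on the right.

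The fall ran through nearly the whole family. Over both hairpins against control, 73 of 77 members were lower in edgeR's quasi-likelihood test (adjusted p under 0.05 over 18734 genes) and 0 were higher, where 26.4% of all tested genes were lower and 23.6% higher. Higher members numbered 0 as well at an unadjusted p under 0.05, and in DESeq2 and limma-voom. The median log2 fold change of the members was −0.45 (quartiles −0.55 and −0.36, range −0.77 to 0.08), and the median of all tested genes was −0.01 (quartiles −0.34 and 0.33). In 73 members all 4 knockdown libraries lay below both controls, as 23.6% of all tested genes did. In a test against a fold of 1.5, lower calls numbered 4 members over both hairpins (2.71% of all genes), 5 with hairpin 1 (4.84%) and 7 with hairpin 2 (3.46%).

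**Figure D2:**
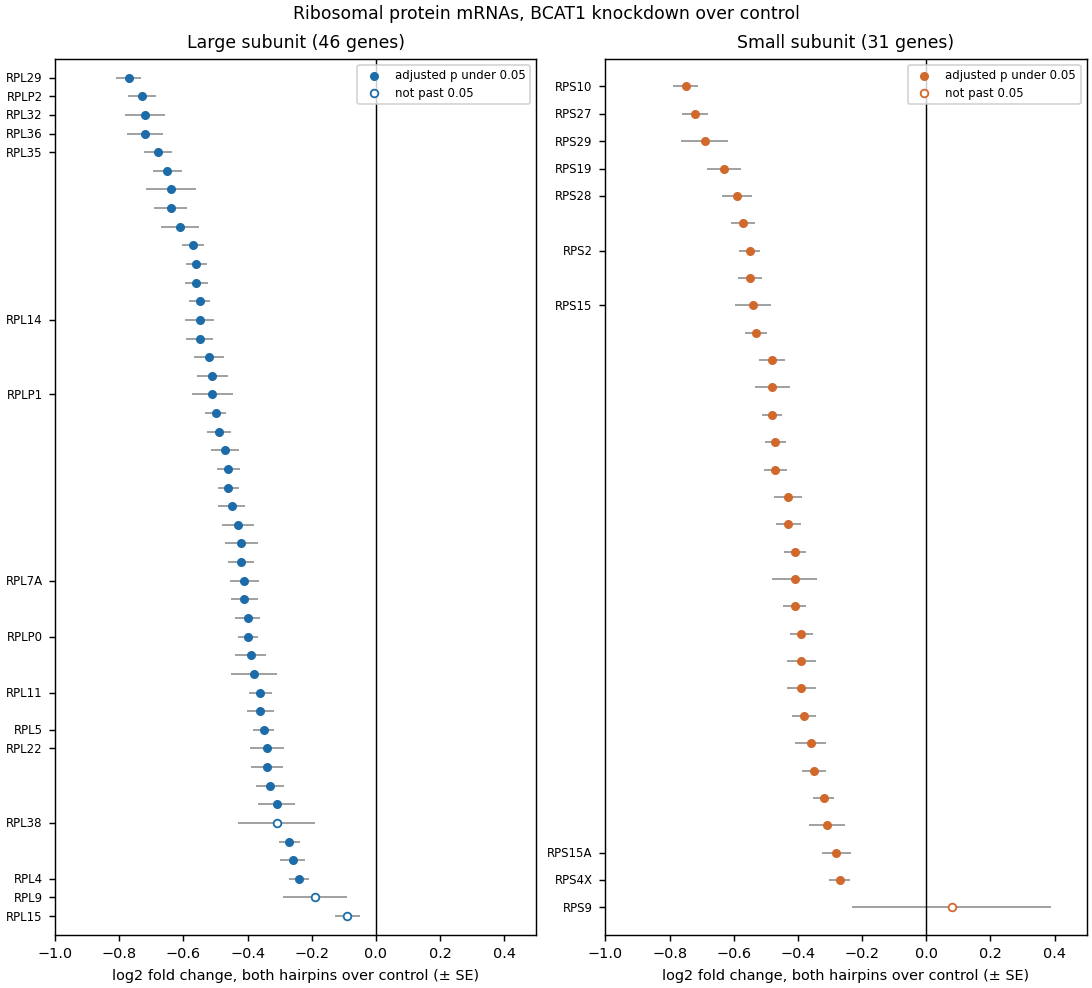
Log2 fold change of each member, mean of both hairpins over control (± SE from the fit on all 6 libraries), by subunit. Filled points passed an adjusted p of 0.05, and labels mark the members singled out by rank, role or lack of a call. All points but RPS9 lie left of 0, from −0.77 for RPL29 to 0.08 for RPS9.

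GC content and transcript length moved with this result. Across 13907 protein-coding genes the log2 fold change went down with GC content (Spearman's rho −0.439) and up with length (rho 0.399). Members had a median transcript of 750.5 bases, against 2572 bases over all these genes, while their median GC content was 50.26%, against 49.98%. After per-library correction for both properties, 62 members were lower and 1, RPL15, was higher, beside 30.0% and 21.7% of all genes, and the members' median was −0.22. The call ended in 12 members, among them RPL8, RPL18, RPL19, RPL23A, RPL28, RPL38, RPS14, RPS15 and RPS16. RPL38 is among them because it passed when these 13907 genes alone were tested. The part of these properties in the result was not tested further.

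Large and small subunits fell alike in the median. Large subunit members had a median log2 fold change of −0.45 with 43 of 46 lower, and small subunit members −0.43 with 30 of 31 lower. With hairpin 1 both medians were −0.43. With hairpin 2 the medians were −0.49 for the large and −0.44 for the small subunit. The difference of the medians, large minus small, was −0.03 over both hairpins, 0.00 with hairpin 1 and −0.05 with hairpin 2, described here without a test. Without control replicate 2 the first was 0.02.

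Summed counts gave a slightly different view of subunit balance. The ratio of large to small subunit counts was 1.53 and 1.52 with hairpin 1, 1.42 and 1.43 with hairpin 2, and 1.45 and 1.47 in control cells. Hairpin 1 libraries thus lay above both controls and hairpin 2 libraries below both. Per kilobase of transcript the order was kept, at 1.41 and 1.40, 1.30 and 1.32, and 1.34 and 1.36. RPS2, a small subunit protein at the mRNA entry channel, had the most counts of any member. Without it the ratios were 1.76 and 1.75, 1.68 and 1.69, and 1.71 and 1.74, with the same order of the groups. These ratios are described without a test, since the smallest two-sided exact permutation p for 2 against 2 libraries is 0.333.

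Each hairpin lowered most members. With hairpin 1, 73 members were lower and 0 higher (24.9% and 24.2% of all tested genes), with a median of −0.43. With hairpin 2, 73 were lower and 0 higher (25.4% and 23.9%), with a median of −0.46. The hairpins share the control libraries. Lower calls with both hairpins covered 72 members, while RPL22 passed with hairpin 1 alone and RPL38 with hairpin 2 alone. With hairpin 2 RPL22 passed in DESeq2 (adjusted p = 0.033), without control replicate 1 (−0.25, edgeR adjusted p = 0.01) and after correction for GC content and length (−0.20, edgeR adjusted p = 0.0061), and RPL38 lost its call after that correction (−0.25, edgeR adjusted p = 0.12) and without hairpin 2 replicate 1 (−0.38, edgeR adjusted p = 0.098). With hairpin 1 RPL38 passed without hairpin 1 replicate 2 (−0.33, edgeR adjusted p = 0.043). RPL9 and RPL15 missed the threshold with hairpin 2 in the main fit. There RPL9 passed with only the compared groups in the fit (−0.28, edgeR adjusted p = 0.00048). RPL15 passed in DESeq2 (−0.11, adjusted p = 0.028) and limma-voom (−0.12, adjusted p = 0.04). Corrected for GC content and length, RPL9 (−0.24) and RPL15 (0.06) did not pass as lower with hairpin 2. With that correction, 49 members were lower and 5 higher with hairpin 1 (28.4% and 27.3% of all genes), and 58 lower and 2 higher with hairpin 2 (30.2% and 21.4%).

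The largest falls included members of both subunits. RPL29, a large subunit protein (ENSG00000162244, chromosome 3, 51993522 to 51995942, minus strand, hg38), stood at 400 and 377 CPM with hairpin 1, 231 and 241 CPM with hairpin 2, and 526 and 507 CPM in control cells. The 3 groups did not overlap, and hairpin 2 libraries were lowest. Its log2 fold change over both hairpins was −0.77 (SE 0.039, edgeR adjusted p = 3e-06). With hairpin 1 alone it was −0.41, and 0.01 after correction for GC content and length.

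RPS10, which sits in the head of the small subunit and is mutated in some patients with Diamond-Blackfan anemia, stood at 499 and 466 CPM with hairpin 1, 540 and 550 CPM with hairpin 2, and 849 and 874 CPM in control cells. All knockdown libraries lay far below the controls (log2 fold change −0.75, SE 0.038, edgeR adjusted p = 3.1e-06). Exons of RPS10 are shared with the readthrough gene RPS10-NUDT3, so a part of its counts is uncertain.

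RPS27, a zinc-binding small subunit protein, stood at 263 and 254 CPM, 208 and 225 CPM, and 386 and 396 CPM in hairpin 1, hairpin 2 and control libraries (log2 fold change −0.72, SE 0.04, edgeR adjusted p = 4e-06). RPS29, also of the small subunit, stood at 67.0 and 68.2 CPM, 71.4 and 86.6 CPM, and 124 and 112 CPM (−0.69, SE 0.073, edgeR adjusted p = 8.7e-05). Neither showed overlap between knockdown and control libraries.

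RPS19, the gene most often mutated in Diamond-Blackfan anemia, stood at 223 and 214 CPM with hairpin 1, 266 and 263 CPM with hairpin 2, and 397 and 346 CPM in control cells (−0.63, SE 0.053, edgeR adjusted p = 2.5e-05). RPS28 stood at 173 and 163 CPM, 191 and 201 CPM, and 284 and 262 CPM (−0.59, SE 0.046, edgeR adjusted p = 1.7e-05). In both, the hairpin 1 libraries were lowest. After correction for GC content and length RPS19 was at 0.03 with hairpin 2.

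Among large subunit members, RPL36 stood at 293 and 278 CPM with hairpin 1, 277 and 284 CPM with hairpin 2, and 499 and 431 CPM in control cells (−0.72, SE 0.056, edgeR adjusted p = 1.8e-05). RPL35, at the rim of the exit tunnel through which the new protein leaves, stood at 285 and 309 CPM, 310 and 330 CPM, and 493 and 493 CPM (−0.68, SE 0.043, edgeR adjusted p = 7e-06). RPL32 stood at 220 and 189 CPM, 155 and 172 CPM, and 299 and 305 CPM (−0.72, SE 0.063, edgeR adjusted p = 3e-05). For RPL36 the hairpins overlapped, whereas RPL32 was lowest with hairpin 2. RPL35 with hairpin 2 was at −0.11 after correction for GC content and length (edgeR adjusted p = 0.064).

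**Figure D3:**
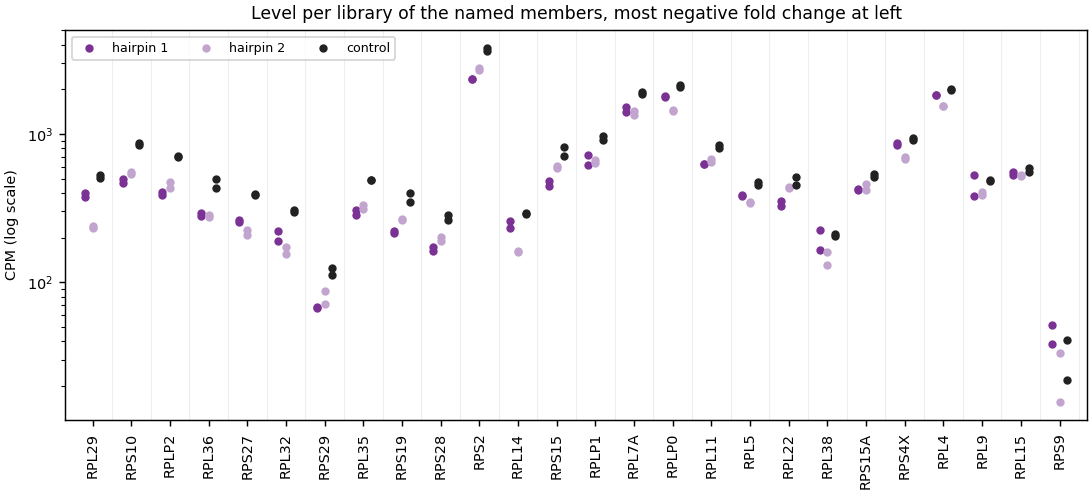
CPM on a log scale in each library for 26 members singled out by rank, role or lack of a call, from the most negative fold change over both hairpins at left. Points are single libraries of hairpin 1, hairpin 2 and control. RPL29, RPL14 and RPL32 are lowest with hairpin 2, RPS2 and RPS15 with hairpin 1, and RPS9 overlaps between each hairpin and the control.

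The P stalk, which recruits translation factors to the large subunit, fell in 3 of 3 members, beside 94.8% of the family and 26.4% of all tested genes. RPLP0, its base, stood at 1800 and 1780 CPM with hairpin 1, 1440 and 1450 CPM with hairpin 2, and 2150 and 2090 CPM in control cells (log2 fold change −0.40, SE 0.031, edgeR adjusted p = 1.8e-05). RPLP1 stood at 720 and 614 CPM, 633 and 667 CPM, and 973 and 906 CPM (−0.51, SE 0.063, edgeR adjusted p = 0.0002). RPLP2 stood at 405 and 385 CPM, 435 and 476 CPM, and 695 and 714 CPM (−0.73, SE 0.044, edgeR adjusted p = 5.8e-06). RPLP0 was lowest with hairpin 2 and its partner RPLP2 with hairpin 1. Calls for RPLP0 and RPLP1 with hairpin 1 (−0.01 and −0.14) and for RPLP2 with hairpin 2 (−0.09) ended after correction for GC content and length.

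RPL5 and RPL11 travel with the 5S ribosomal RNA, and when free they bind MDM2, the ubiquitin ligase of p53. RPL5 stood at 385 and 384 CPM with hairpin 1, 342 and 345 CPM with hairpin 2, and 455 and 472 CPM in control cells (−0.35, SE 0.033, edgeR adjusted p = 4.4e-05). RPL11 stood at 631 and 624 CPM, 647 and 677 CPM, and 849 and 806 CPM (−0.36, SE 0.037, edgeR adjusted p = 7.7e-05). Both lay below the controls in all 4 knockdown libraries, by less than the median member.

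Other structural groups fell as the family did, where 94.8% of members and 26.4% of all tested genes were lower over both hairpins. All 8 proteins that line the exit tunnel or its rim were lower, with a median of −0.40, and all 14 of the small subunit head, with a median of −0.51. Of 18 members mutated in Diamond-Blackfan anemia 17 were lower, with a median of −0.50, and the exception was RPL15. FAU stood at 288 and 267 CPM with hairpin 1, 301 and 310 CPM with hairpin 2, and 422 and 386 CPM in control cells (−0.47, edgeR adjusted p = 6.2e-05, and 0.01 after correction for GC content and length).

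RPL15, RPL9, RPL38 and RPS9 did not pass over both hairpins. RPL15 stood at 531 and 553 CPM with hairpin 1, 520 and 528 CPM with hairpin 2, and 550 and 586 CPM in control cells (−0.09, SE 0.039, edgeR adjusted p = 0.078). Its hairpin 1 libraries overlapped the controls, and after correction for GC content and length it was at 0.09 (edgeR adjusted p = 0.043). RPL9 stood at 383 and 530 CPM, 403 and 390 CPM, and 488 and 484 CPM (−0.19, SE 0.1, edgeR adjusted p = 0.16), with hairpin 1 libraries on both sides of the controls. Without hairpin 1 replicate 2 RPL9 passed (−0.31, edgeR adjusted p = 0.00026), and without control replicate 1 RPL15 passed (−0.14, edgeR adjusted p = 0.04). RPL15 also passed narrowly in DESeq2 (−0.09, adjusted p = 0.05 as rounded). Exons of RPL9 overlap the antisense gene LIAS, and the sources at hand do not state whether strand was used in counting.

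RPL38, known in mice for its part in the translation of Hox mRNAs, stood at 165 and 226 CPM with hairpin 1, 130 and 160 CPM with hairpin 2, and 206 and 211 CPM in control cells (−0.31, SE 0.12, edgeR adjusted p = 0.059). Its hairpin 2 libraries lay below both controls and its hairpin 1 libraries on either side. It passed without hairpin 1 replicate 2 (−0.42, edgeR adjusted p = 0.0035) and without hairpin 2 replicate 2 (−0.39, edgeR adjusted p = 0.031), and in limma-voom (−0.32, adjusted p = 0.044). RPS9 (chromosome 19, 54200742 to 54249003, plus strand, hg38) was low and variable, at 38.3 and 51.4 CPM, 33.3 and 15.5 CPM, and 22.0 and 40.8 CPM (0.08, SE 0.31, edgeR adjusted p = 0.86). In control cells it held 40.6 CPM per kilobase, and the next lowest member per kilobase, RPL32, 174 CPM per kilobase. The rank of RPL32 rests on the annotated transcript length used, 1734 bases, and in CPM it lay above RPL38 in control cells. The reason for the low row of RPS9 was not tested.

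Among the smallest falls that passed were those of RPL4, which lines the exit tunnel, and RPS4X and RPS15A of the small subunit. RPL4 stood at 1820 and 1840 CPM with hairpin 1, 1540 and 1550 CPM with hairpin 2, and 1980 and 2010 CPM in control cells (−0.24, SE 0.031, edgeR adjusted p = 0.00024). RPS4X stood at 841 and 867 CPM, 681 and 698 CPM, and 933 and 918 CPM (−0.27, SE 0.033, edgeR adjusted p = 0.0002). RPS15A stood at 422 and 425 CPM, 419 and 462 CPM, and 535 and 513 CPM (−0.28, SE 0.045, edgeR adjusted p = 0.00093). RPL4 and RPS4X were higher with hairpin 1 than with hairpin 2.

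Levels differed widely between members although their proteins are made in nearly equal numbers. In control cells the median level was 804 CPM per kilobase in the large and 973 CPM per kilobase in the small subunit. The quartiles over all 77 were 575 and 1170 CPM per kilobase. These levels and ranks rest on the annotated lengths used, such as 359 bases for RPS27 and 2316.5 bases for RPL4. Without division by length the members ran from 31.4 to 3730 CPM in control cells. RPS2 was highest at 2470 CPM per kilobase with hairpin 1, 2890 with hairpin 2 and 3910 in control cells. RPL7A followed at 1860, 1780 and 2410 CPM per kilobase, and RPLP1 at 1500, 1460 and 2110 CPM per kilobase. RPS2 fell (−0.55, SE 0.033, edgeR adjusted p = 5.9e-06), as did RPL7A (−0.41, SE 0.045, edgeR adjusted p = 0.00011). With hairpin 2 RPS2 was at 0.05 after correction for GC content and length.

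Scaling libraries to the members alone asks how each mRNA changed relative to the rest of the family. That scaling moved the median of all tested genes to 0.435 over both hairpins. Relative to the family, 20 members were lower and 8 higher, and 49 did not pass (5.52% of all genes lower and 56.1% higher). RPL29 (−0.32), RPS10 (−0.30), RPL32, RPLP2 and RPS27 (−0.28 each) led the lower side. RPL15 (0.36), RPL4 (0.20), RPL7 (0.19), RPL6 and RPS4X (0.18 each) led the higher side, so they lost less than the family.

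Hairpin 2 and hairpin 1 differed in 37 members. In edgeR, 24 members were lower and 13 higher with hairpin 2 than with hairpin 1, where 23.3% and 22.9% of all tested genes were, so the shares of the family lie near the background. The median difference was −0.05. Among large subunit members 17 were lower and 4 higher with hairpin 2, with a median of −0.06. Among small subunit members 7 were lower and 9 higher, with a median of 0.00. Without hairpin 2 replicate 1 the lower calls numbered 16. When a fold above 1.5 was asked for, 1 member, RPL29, was lower and 0 were higher (4.36% and 5.11% of all genes), and after correction for GC content and length 28 were lower and 16 higher (32.6% and 27.5%). Relative to the family alone, 13 large subunit members were lower and 6 higher with hairpin 2, and 5 small subunit members were lower and 11 higher (20.5% and 25.1% of all genes).

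RPL29 had the most negative difference that passed, −0.72 (SE 0.046, edgeR adjusted p = 6e-06), from the levels given above. RPL14, of the large subunit, stood at 159 and 163 CPM with hairpin 2, 259 and 233 CPM with hairpin 1, and 289 and 295 CPM in control cells. Its difference between hairpins was −0.61 (SE 0.054, edgeR adjusted p = 3.9e-05), and its call with hairpin 1 ended after correction for GC content and length (−0.04). RPL12, which stands beside RPLP0 at the stalk base, followed at −0.50 (SE 0.038, edgeR adjusted p = 1.6e-05). Relative to the family these differences were −0.68, −0.57 and −0.46.

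On the other side, RPL22, which also binds viral RNA, stood at 437 and 432 CPM with hairpin 2, 352 and 326 CPM with hairpin 1, and 456 and 515 CPM in control cells (difference 0.36, SE 0.062, edgeR adjusted p = 0.0017). RPS15, in the small subunit head, stood at 588 and 604 CPM with hairpin 2, 484 and 447 CPM with hairpin 1, and 814 and 712 CPM in control cells (0.36, SE 0.066, edgeR adjusted p = 0.0025). RPS19 differed by 0.28 (SE 0.062, edgeR adjusted p = 0.0069). In these 3 the libraries of the hairpins did not overlap, and hairpin 2 lay closer to the control. RPS9 had a difference of −0.88 that did not pass (SE 0.36, edgeR adjusted p = 0.08). Without hairpin 2 replicate 1 it was −1.53 and passed (edgeR adjusted p = 0.014), and it passed at −0.87 without control replicate 1 (0.046) or control replicate 2 (0.043) and at −0.88 with only the hairpin libraries in the fit (0.044). After correction for GC content and length RPS9 was higher with hairpin 1 than in control (0.93, edgeR adjusted p = 0.037).

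**Figure D4:**
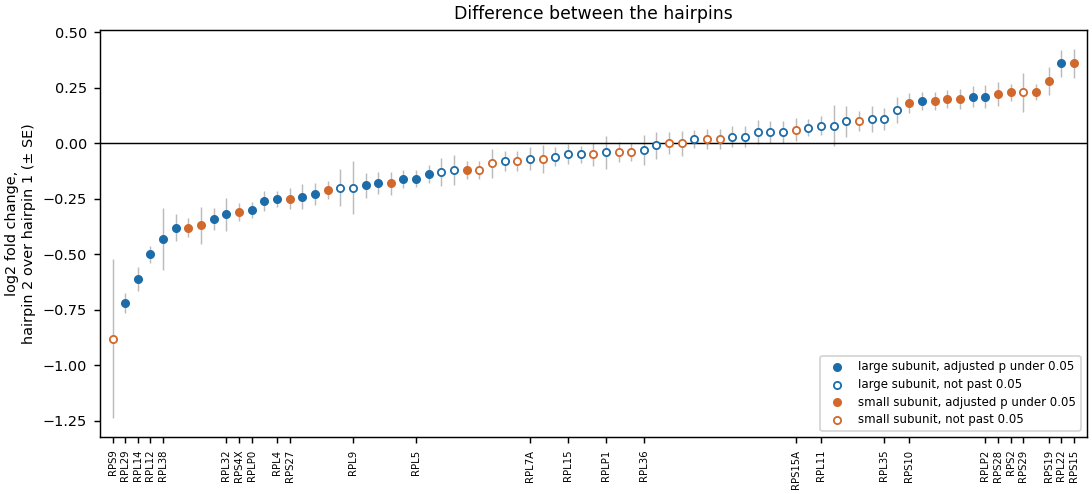
Log2 fold change of hairpin 2 over hairpin 1 for each of the 77 members (± SE), ordered from the most negative. Filled points passed an adjusted p of 0.05, and labels mark the members singled out and RPL12. RPL29, RPL14 and RPL12 lead the filled points on the left, and RPL22 and RPS15 stand at the right.

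Some paralogs with an L suffix replace their namesake in certain ribosomes or tissues. The count table held 8 paralogs with an L suffix, of which 6 were tested. Over both hairpins 5 were lower and 1 higher, where 26.4% and 23.6% of all tested genes were. With hairpin 1, 4 were lower and 0 higher (24.9% and 24.2%), and with hairpin 2, 3 were lower and 1 higher (25.4% and 23.9%). RPS27L, a target of p53, stood at 5.73 and 7.06 CPM with hairpin 1, 14.8 and 17.7 CPM with hairpin 2, and 19.4 and 20.9 CPM in control cells. It fell with hairpin 1 (−1.66, edgeR adjusted p = 2e-05), was at −0.31 with hairpin 2 (edgeR adjusted p = 0.071), and showed a difference of 1.35 for hairpin 2 over hairpin 1 (edgeR adjusted p = 7.2e-05). Its namesake RPS27 differed by −0.25.

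RPL36AL stood at 88.4 and 90.8 CPM with hairpin 1, 84.6 and 81.2 CPM with hairpin 2, and 128 and 129 CPM in control cells (−0.58, edgeR adjusted p = 6.5e-06). RPL39L stood at 38.9 and 33.0 CPM, 32.9 and 35.3 CPM, and 58.2 and 52.1 CPM (−0.66, edgeR adjusted p = 0.00016). RPL22L1 stood at 18.5 and 17.9 CPM, 13.7 and 14.1 CPM, and 20.3 and 21.6 CPM (−0.40, edgeR adjusted p = 0.0016), so it was lowest with hairpin 2, where RPL22 was not.

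RPL26L1 stood at 67.3 and 69.7 CPM, 72.8 and 77.1 CPM, and 79.5 and 83.2 CPM (−0.18, edgeR adjusted p = 0.0068). RPL7L1, which takes part in ribosome assembly, stood at 320 and 306 CPM, 360 and 349 CPM, and 299 and 302 CPM (0.15, edgeR adjusted p = 0.0074). Both turned with the correction for GC content and length, to 0.01 and −0.09.

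Pseudogene rows named after members gave a check on reads that near-identical copies could share. Of 1585 such rows 499 had a count, and they summed to 3.24 to 3.40 counts per 100 member counts in every library. Of the 143 tested, 62 were lower and 4 higher, with a median of −0.48, where 26.4% and 23.6% of all tested genes were lower and higher. The rows were not tested against the members. Exons of 22 members overlap another gene, and 21 of these were lower, beside 52 of the 55 without an overlap.

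Medians were compared between members with and without a start-site motif. The 42 members with a tract at the annotated start had a median log2 fold change of −0.48, and the 20 without a median of −0.44. Within 5 bases of the start 50 of 62 members carried a tract, so some of these 20 have one nearby. The ETS core CCGGAAG, searched on both strands from 250 bases before to 50 bases after the start, stood in 33.9% of members and 10.7% of all promoters. It overlapped the pyrimidine tract in 2 of these 21 members, and medians with and without it were −0.47 and −0.48. The E-box CACGTG, a motif bound by the Myc family, stood in 4.84% of members and 7.43% of all promoters, and the TATAAA motif in 8.06% and 12.0%. The AAGATGG core of YY1 stood in 12.9% of members and 6.06% of all promoters.

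The gene bodies of 28 members hold 59 small nucleolar RNA genes, which guide chemical changes of ribosomal RNA. All 28 were lower, with a median of −0.44, beside 45 of the 49 without, with a median of −0.45. In the whole family 94.8% were lower, and of all tested genes 26.4%. Across the 77 members the log2 fold change went down with GC content (Spearman's rho −0.38), with medians of −0.49 in the 38 members above the median GC content and −0.39 in the other 39. It went up with transcript length (rho 0.24), with medians of −0.41 in the 38 longer and −0.48 in the 39 shorter members, and its rho with the control level was 0.12. These values are descriptions over genes of the same libraries, which are not independent replicates.

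Related gene lists were set beside the family. Of 19 TOP mRNAs that encode no ribosomal protein, 12 were lower and 3 higher over both hairpins, with a median of −0.16. Of all tested genes 26.4% were lower and 23.6% higher. With hairpin 1, 6 were lower and 6 higher (median 0.03), near the 24.9% and 24.2% of all tested genes, and with hairpin 2, 15 were lower and 2 higher (median −0.26), beside 25.4% and 23.9%. EEF1B2, an elongation factor subunit, stood at 203 and 185 CPM with hairpin 1, 256 and 283 CPM with hairpin 2, and 362 and 392 CPM in control cells (−0.72, edgeR adjusted p = 1.8e-05). The elongation factor subunit EEF1D was at −0.72 as well (edgeR adjusted p = 4.2e-05), and IMPDH2, which makes guanine nucleotides, at −0.40 (edgeR adjusted p = 4.9e-05). IMPDH2 was at −0.07 with hairpin 1 (edgeR adjusted p = 0.24) and fell with hairpin 2 (−0.73, edgeR adjusted p = 7.4e-06), a difference of −0.66 between them (edgeR adjusted p = 7.8e-06).

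**Figure D5:**
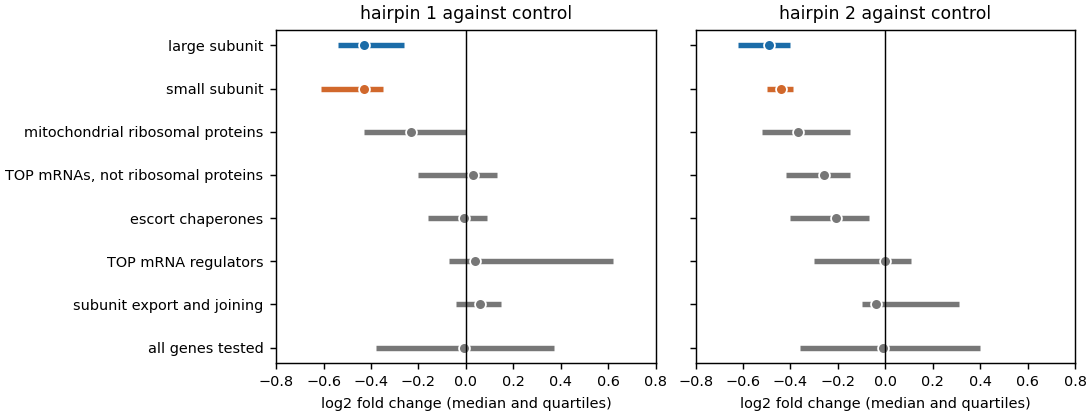
Median (point) and quartiles (bar) of the log2 fold change with hairpin 1 and with hairpin 2, each over control, for the subunits, related gene lists and all genes tested. Both subunits lie near −0.43 to −0.49, while TOP mRNAs of other proteins lie at 0.03 with hairpin 1 and −0.26 with hairpin 2.

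Of 14 regulators of TOP mRNAs 4 were lower and 6 higher (median 0.04), where 26.4% and 23.6% of all tested genes were. The lower share lies near that of all tested genes and the higher share above it, which was not tested. EIF4EBP2, a translation repressor that mTOR inactivates, stood at 197 and 193 CPM with hairpin 1, 88.6 and 93.8 CPM with hairpin 2, and 90.1 and 92.1 CPM in control cells. It rose with hairpin 1 (1.10, edgeR adjusted p = 7.2e-07), was at 0.00 with hairpin 2, and differed between them by −1.10 (edgeR adjusted p = 5.4e-07). TIA1, which binds TOP mRNAs under stress, rose over both hairpins (0.60, edgeR adjusted p = 1.4e-05), as did LARP4, which binds poly(A) tails (0.65, edgeR adjusted p = 2.2e-05).

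The list of escort chaperones, a class that shields newly made ribosomal proteins until they are assembled, held 11 genes. Not every listed gene is known mainly for that role. Of the 11, 5 were lower and 1 higher (median −0.11), beside the same shares of all tested genes, 26.4% and 23.6%. ABCE1, listed there and known for recycling ribosomes, rose (0.40, edgeR adjusted p = 6.5e-05), while AAMP (−0.37, edgeR adjusted p = 6.5e-05) and BTF3 (−0.32, edgeR adjusted p = 9.4e-05) fell. Of 13 factors for export and joining of the subunits 3 were lower and 5 higher (median 0.03), where 26.4% and 23.6% of all tested genes were. Of 78 mitochondrial ribosomal protein genes, whose products serve a separate ribosome, 55 were lower and 4 higher (median −0.28), beside those shares. With hairpin 1 alone 42 were lower and 8 higher (median −0.23), beside 24.9% and 24.2% of all tested genes. With hairpin 2 alone 56 were lower and 4 higher (median −0.37), beside 25.4% and 23.9%. These lists were not tested against the family.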

How the data were processed

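Whole-number read counts per Ensembl gene were deposited by the authors for 6 libraries, not normalized. Total RNA was extracted with TRIzol and TruSeq RNA libraries were made, per the labels' protocols. The submitters' processing notes name HISAT2 2.2.0, StringTie and hg38. The annotation release, the counting options and use of strand were not stated. Symbols came from a table that held 56105 of the 64252 IDs, so a copy of a member under another ID was not counted.

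Tests used R 4.3.3 and edgeR 4.0.16. filterByExpr (minimum count 10) kept 18734 genes, libraries were scaled with TMM, and glmQLFit had a term per group over all 6 libraries (3 residual degrees of freedom). The mean of both hairpins and each hairpin alone were compared with control, and hairpin 2 with hairpin 1. Tests were two-sided, and p-values were adjusted by Benjamini-Hochberg across the 18734 genes. Standard errors were the absolute log2 fold change divided by the square root of F. CPM per kilobase used the median length of basic protein-coding transcripts in GENCODE on hg38. Start sites came from RefSeq (GRCh38.p14). The fit was tested on simulated counts. Replicates differed by more than sampling noise (mean chi-square per gene 5.73 to 8.23), so none was counted as a copy of another.

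Alternatives were RLE size factors, TMM without the members, other low-count filters, DESeq2 1.42.0, limma-voom (limma 3.58.1), a replicate block, a fit of the compared groups alone, leaving out each library, a fold threshold of 1.5, correction for GC content and length (mgcv 1.9.3), and pseudogene rows summed in. Chosen after seeing the data were the same genes without that correction, scaling to the members, and the ratio without RPS2. The members and lists were chosen with earlier results of these data known. Named were the 5 most negative and 3 most positive members of each subunit, members without a lower call, the 3 largest hairpin differences each way, the 3 highest and lowest levels per length, the P stalk and 5S groups, tested paralogs, FAU, BCAT1 and MYCN, and up to 3 genes by smallest p of the TOP, chaperone and regulator lists. RPL12, RPL6, RPL7 and the genes whose call ended were named after their values were seen. A few genes are not reported here by name. Intervals of counting are not given, since replicate spread exceeds them.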

Additional observations from a re-analysis of the deposited data

Results flagged for a closer look

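The effect of the 2 hairpins against control differed, in the direct test of hairpin 2 over hairpin 1 (edgeR adjusted p under 0.05), for RPL12 and for several members singled out by rank, role or lack of a call. Of all tested genes 23.3% were lower and 22.9% higher with hairpin 2, and RPL29, RPL14, RPL22, RPS15 and RPS19 were singled out for the size of this difference, so the number of these members is no result about the family. The log2 difference was negative, lower with hairpin 2, in RPL29 (−0.72), RPL14 (−0.61), RPL12 (−0.50), RPL38 (−0.43), RPL32 (−0.32), RPS4X (−0.31), RPLP0 (−0.30), RPL4 (−0.25), RPS27 (−0.25) and RPL5 (−0.16). It was positive in RPL22 (0.36), RPS15 (0.36), RPS19 (0.28), RPS2 (0.23), RPS28 (0.22), RPLP2 (0.21) and RPS10 (0.18). Among the paralogs it was 1.35 in RPS27L, 0.18 in RPL7L1 and −0.39 in RPL22L1.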

How the results depend on the processing

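Counts of lower members and their medians kept their direction under every alternative run except scaling to the members, which centres the family by construction. With a fold threshold of 1.5, lower calls numbered 4 over both hairpins, 5 with hairpin 1, 7 with hairpin 2 and 1 between the hairpins, where higher calls numbered 0. After correction for GC content and length the median was −0.22, −0.18 and −0.24, and higher calls 1, 5 and 2, in the first 3 comparisons. That correction reversed FAU (0.01 over both hairpins, 0.11 with hairpin 2), RPL15 (0.09, and 0.12 with hairpin 1), RPL26L1 (0.01), RPL29 with hairpin 1 (0.01), RPL7L1 (−0.09, −0.14 with hairpin 1, −0.03 with hairpin 2), and, with hairpin 2, RPS15 (0.20), RPS19 (0.03) and RPS2 (0.05). The cause was not tested. Subunit ratios for hairpin 1, hairpin 2 and control were 1.54, 1.44 and 1.46 with pseudogene rows (shares 4.71%, 4.67% and 6.02%), 1.40, 1.31 and 1.35 per kilobase, and 1.75, 1.69 and 1.73 without RPS2. Leaving out 1 library gave 73 to 75 lower calls over both hairpins, 68 to 73 with hairpin 1, 72 to 75 with hairpin 2, and 16 to 25 lower and 10 to 15 higher between the hairpins. Medians ran from −0.47 to −0.43 over both hairpins, −0.47 to −0.39 with hairpin 1, −0.49 to −0.44 with hairpin 2 and −0.07 to −0.02 between the hairpins. Large minus small subunit medians ran from −0.04 to 0.02, −0.03 to 0.04, −0.08 to −0.01 and −0.08 to −0.03 in these comparisons. It gave ratios of 1.52 to 1.53, 1.42 to 1.43 and 1.45 to 1.47, and shares of 4.55% to 4.58%, 4.51% to 4.52% and 5.74% to 5.91%. Differences between the hairpins missed the threshold without hairpin 2 replicate 1 in RPL32 (−0.25), RPL38 (−0.29), RPL5 (−0.16), RPL7L1 (0.15) and RPS10 (0.19), without hairpin 2 replicate 2 in RPL5 (−0.16), RPLP2 (0.14), RPS10 (0.17) and RPS28 (0.19), and without hairpin 1 replicate 2 in RPL38 (−0.19), RPLP2 (0.17), RPS10 (0.12) and RPS28 (0.18). RPL38 also missed it in DESeq2 (adjusted p = 0.1) and with no low-count filter (edgeR adjusted p = 0.072). With hairpin 1 against control, RPL4 (−0.14 to −0.11) missed it without hairpin 1 replicate 1 or either control, and RPS4X (−0.13 to −0.09) when any 1 library other than hairpin 1 replicate 2 was left out. RPL38 with hairpin 2 missed it without hairpin 2 replicate 1 (−0.38), RPL26L1 over both hairpins without control replicate 2 (−0.15), and RPL7L1 without control replicate 1 (0.14).

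Same-numbered libraries showed no shared deviation over the genes, with correlations of −0.033, 0.004 and −0.038. Whether they were paired in culture or handling cannot be told from these values. With a replicate block, 74 members were lower over both hairpins, 71 with hairpin 1 and 73 with hairpin 2. Between the hairpins 23 were lower and 13 higher. Shares of all tested genes were not computed with the block or with 1 library left out. In the main fit 26.4%, 24.9% and 25.4% of all tested genes were lower against control, in the same order. Between the hairpins 23.3% were lower and 22.9% higher there. RPL38 over both hairpins passed with the block (−0.32, edgeR adjusted p = 0.011), and RPS4X with hairpin 1 missed the threshold (−0.12, edgeR adjusted p = 0.05 as rounded).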
